A study of Mus musculus with 2 samples.

Results

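The 34 genes described here make, control or export sterols and fatty acids. They were taken by symbol from a fixed list, and all 34 were found among the 32285 genes of the feature tables. By role, 7 belong to the mevalonate pathway, 11 to the steps from squalene to cholesterol, 6 to the control of sterol synthesis and to sterol transport, 7 to fatty acid synthesis and desaturation, and 3 to the liver X receptor (LXR) and cholesterol efflux. They were measured by droplet single-cell RNA sequencing in 2 mouse cultures of myeloid-derived suppressor cells (MDSC), immature myeloid cells that restrain T cells. Each was grown for 4 days with recombinant IL-6 and GM-CSF at 40 ng/mL apiece, and from each, live cells positive for the surface integrin CD11b were sorted after tagging and then pooled for capture. One culture received the vehicle DMSO. The other received 50 nM selinexor, a small molecule that blocks the nuclear export receptor exportin 1. The labels name no strain, tissue of origin or number of animals. Each culture is 1 library and each group holds 1 library, so no spread between cultures can be measured, and no test, p-value or standard error is given. All intervals are 95% intervals for counting error only.

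Cells build cholesterol from acetyl-CoA. The mevalonate pathway makes isoprenoid units and joins them to farnesyl diphosphate, which feeds squalene, the sterols and the lipid anchors of many proteins. When sterol in the endoplasmic reticulum is low, SCAP carries the membrane-bound SREBP factors to the Golgi, where they are cut and released to switch on genes of sterol and fatty acid synthesis. INSIG proteins hold SCAP back when sterol is plentiful. LXR is switched on by oxidised sterols and drives the transporters that move cholesterol out of macrophages and other myeloid cells.

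Filtering kept 1743 DMSO cells with 14222344 gene UMIs (unique molecular identifiers, counted molecules) and 1967 selinexor cells with 12841480 UMIs. Depth per cell differed, with a median of 7788 UMIs in the DMSO library and 3984 in the selinexor library. The gene for CD11b, Itgam, had at least 1 UMI in 76.0% of DMSO cells and 68.5% of selinexor cells. Levels are given as UMI counts per 1000000 gene UMIs of the library or cluster (CPM), and ratios are on the log2 scale, selinexor over DMSO, after adding 1 CPM to both levels. The interval beside a ratio is that of the plain ratio, without the added 1 CPM. A gene was measured if the libraries held at least 50 of its UMIs together, and the median log2 ratio of all measured genes was 0.13. Joint clustering, made without the genes described here and without the other lipid lists, gave 13 clusters. The mix of clusters differed between the libraries. The monocyte-like cluster, led by Fn1, held 17.0% of selinexor cells and 0.516% of DMSO cells. Of 8 monocyte markers, 5 were at least 1.5-fold higher in the selinexor library and 1 was lower. Their summed level was 1309 CPM in DMSO and 2481 CPM in selinexor. All 5 early neutrophil markers were at least 1.5-fold lower (1265 and 503.8 CPM). Another cluster, with Csta3 and Dmkn as its leading genes, took up 19.6% of DMSO cells and 0.610% of selinexor cells. For that reason ratios were also computed with the same mix. In it, the 8 clusters with at least 20 cells in each library entered with the same weights in both libraries. All other clusters were left out of it, among them the monocyte-like cluster and the Csta3 and Dmkn cluster. A same-mix ratio can thus differ from the main one because cells were removed. For the 34 genes the same-mix ratios are given where they changed the sign or the call, and otherwise mostly as ranges.

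Promoters of 26 of the 34 genes were found in a RefSeq table of build GRCm38.p6, each from 250 bases before to 50 after the annotated start. The promoters of Fdps, Fdft1, Sqle, Stard4, Fads1, Scd1, Scd2 and Abcg1 were not looked up elsewhere. On both strands 3 motifs were searched: TCACNCCAC, the sterol regulatory element bound by SREBP, CCAAT, the box bound by NF-Y, and GGGCGG, the GC box bound by Sp1. No motif overlapped another of the 3 in any of the 26 windows, and in 1 window, Fasn, a CCAAT overlapped a CCAAT on the other strand. The exact TCACNCCAC letters were in 1 of the 26 windows, Hmgcs1, 137 bases before the start, and in 1.22% of 27025 promoters of the same length. CCAAT was in 19 of 26 (73.1%) against 37.9% of all promoters, and GGGCGG in 20 of 26 (76.9%) against 35.9%. A window without a motif says only that these letters are not in it. The 4 windows below belong to Hmgcs1, the one with the sterol regulatory element, to Mvk, the window with the most CCAAT boxes, and to Pmvk and Fads2, which were lower in the selinexor library. Capitals mark TCACNCCAC and CCAAT on either strand (CCAAT on the other strand reads ATTGG). The Hmgcs1 window lies at chr13:119690101-119690400 on the plus strand, Mvk at chr5:114444019-114444318 on the plus strand, Pmvk at chr3:89454291-89454590 on the plus strand and Fads2 at chr19:10101454-10101753 on the minus strand.
Hmgcs1: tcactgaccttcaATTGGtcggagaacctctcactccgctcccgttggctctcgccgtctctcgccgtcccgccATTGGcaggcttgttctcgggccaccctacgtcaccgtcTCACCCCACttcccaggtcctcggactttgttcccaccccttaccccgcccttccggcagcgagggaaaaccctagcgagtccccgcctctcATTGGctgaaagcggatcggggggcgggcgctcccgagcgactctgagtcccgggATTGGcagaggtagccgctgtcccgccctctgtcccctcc
Mvk: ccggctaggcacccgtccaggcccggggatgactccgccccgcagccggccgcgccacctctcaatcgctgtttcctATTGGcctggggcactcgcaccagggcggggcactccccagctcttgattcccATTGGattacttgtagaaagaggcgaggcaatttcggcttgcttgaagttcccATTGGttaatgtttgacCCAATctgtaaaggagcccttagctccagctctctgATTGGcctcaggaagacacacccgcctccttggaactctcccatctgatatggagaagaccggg
Pmvk: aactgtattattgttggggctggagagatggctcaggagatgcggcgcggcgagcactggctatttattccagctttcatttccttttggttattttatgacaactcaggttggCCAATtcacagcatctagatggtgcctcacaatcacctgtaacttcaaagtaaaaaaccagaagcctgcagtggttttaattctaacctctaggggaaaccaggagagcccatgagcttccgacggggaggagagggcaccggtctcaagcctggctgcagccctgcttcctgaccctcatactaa
Fads2: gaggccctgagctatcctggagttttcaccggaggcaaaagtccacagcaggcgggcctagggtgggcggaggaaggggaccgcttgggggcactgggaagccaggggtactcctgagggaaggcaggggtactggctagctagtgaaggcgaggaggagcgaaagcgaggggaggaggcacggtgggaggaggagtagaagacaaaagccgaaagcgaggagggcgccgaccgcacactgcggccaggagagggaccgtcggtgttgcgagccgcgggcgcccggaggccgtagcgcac
Hmgcs1 carries 4 CCAAT boxes, Mvk 5, Pmvk 1 and Fads2 none, and the Fads2 window holds 1 GC box and the Pmvk window none.

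Over all cells, a few of the 34 genes differed between the libraries by 1.5-fold or more and most did not. All 34 were measured. Fads2, Fdps, Pmvk and Scd1 were at least 1.5-fold lower with selinexor, 4 of 34, where 3.88% of 10393 genes were. Abcg1 and Nr1h3 were at least 1.5-fold higher, 2 of 34, where 9.83% of all genes were. The median of the 34 was -0.08, below the 0.13 of all genes, with 21 below 0 and 13 above. Scd2, at -0.57, lay just inside the 1.5-fold limit of 0.585 and Scd1, at -0.61, just outside it.

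**Figure D1:**
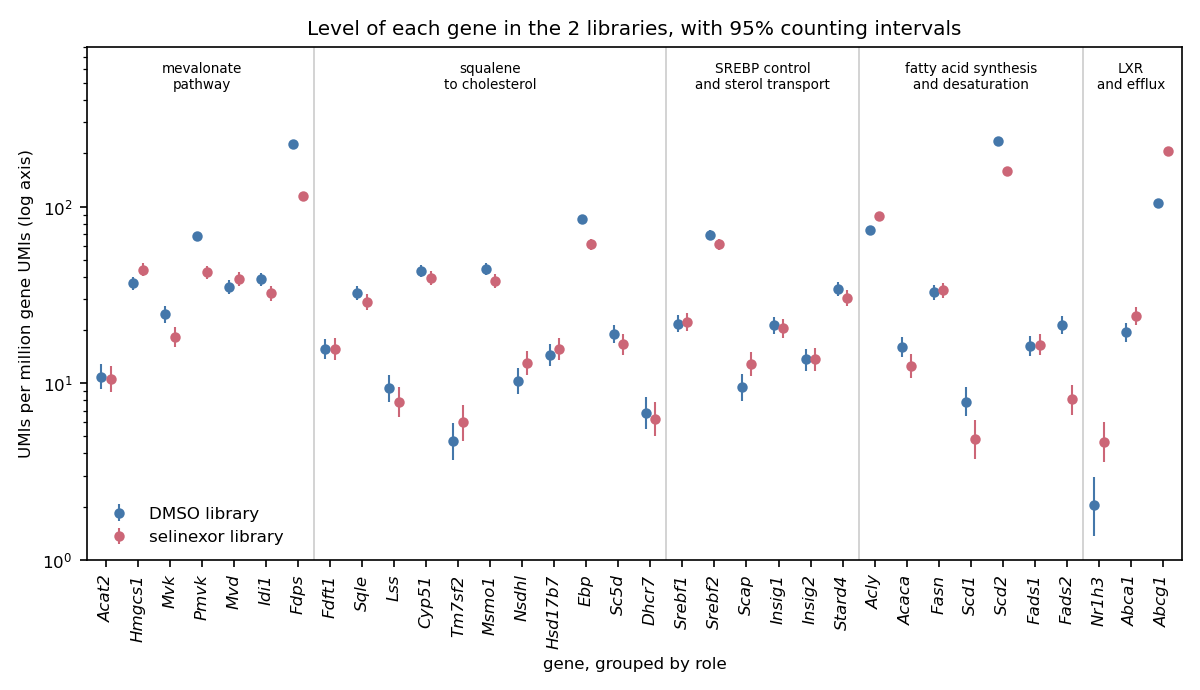
Level of each of the 34 genes (horizontal axis, grouped by role) in CPM (vertical log axis) in the DMSO library (blue) and the selinexor library (red). Points are 1 library each and bars are 95% Poisson counting intervals. Fdps is at 224.8 and 114.7 CPM, and Abcg1 at 104.1 and 205.7 CPM.

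In the mevalonate pathway, Pmvk and Fdps were lower with selinexor and the other 5 genes were within 1.5-fold. Acat2, which condenses acetyl-CoA in the cytosol, had 155 UMIs in the DMSO library and 136 in the selinexor library (10.9 and 10.6 CPM, log2 ratio -0.04, interval -0.38 to 0.30). Hmgcs1, which makes HMG-CoA, had 523 and 563 UMIs (36.8 and 43.8 CPM, 0.25, interval 0.08 to 0.43) and turned to -0.20 with the same mix of clusters. Mvk, mevalonate kinase, was at 24.5 and 18.3 CPM (-0.40, interval -0.67 to -0.18). Pmvk, the next kinase on the route (chr3:89454541-89469013), had 964 and 546 UMIs, 67.8 CPM against 42.5 CPM, a log2 ratio of -0.66 (interval -0.83 to -0.52) and -0.72 with the same mix. After thinning each cell to 2000 UMIs Pmvk was at -0.44, and it was also within 1.5-fold when cycling cells (a UMI of Mki67 or Top2a) were left out. Mvd, which makes isopentenyl diphosphate, was at 35.1 and 38.9 CPM (0.15, interval -0.03 to 0.33). Idi1, the isomerase of that product, was at 38.9 and 32.3 CPM (-0.26, interval -0.45 to -0.08). The same-mix ratios of Acat2, Mvk, Mvd and Idi1 lay from -0.25 (Mvk) to 0.06 (Mvd).

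Fdps, farnesyl diphosphate synthase (chr3:89093588-89101959), had 3197 UMIs in the DMSO library and 1473 in the selinexor library. Its level was 224.8 CPM (interval 217.1 to 232.7) in the DMSO library and 114.7 CPM (108.9 to 120.7) in the selinexor library, a log2 ratio of -0.96 (interval -1.06 to -0.88). With the same mix it was -0.76, and over 10 alternative settings it ran from -1.11 to -0.74. The Fdps value is uncertain in one respect: 74.0% of the 50-base stretches in the last 500 bases of its transcripts also occur in Gm43738, which overlaps it on the same strand, or in the pseudogenes Gm3571, Gm5873 and Gm8163. The same share was 43.3% for Idi1 (pseudogenes), 22.4% for Acaca (Gm5182), 20.9% for Acat2 (Acat3, which had 2 and 0 UMIs) and 11.4% for Tm7sf2 (the overlapping Vps51). Hmgcs1, Mvd, Fdft1, Lss, Cyp51, Srebf1 and Acaca overlap a gene on the other strand, and the labels do not say whether strand was used in counting. The group's median was -0.26, with 2 of 7 lower and 0 higher.

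None of the 11 genes from squalene to cholesterol passed 1.5-fold over all cells, and their median was -0.13. Ebp, the sterol isomerase, lay lowest with 1210 and 786 UMIs, 85.1 CPM against 61.2 CPM (-0.47, interval -0.61 to -0.34). Under the other library scalings it passed the limit, at -0.61 with median-of-ratios size factors. Nsdhl, a sterol dehydrogenase of the demethylation steps, lay highest with 10.3 and 13.1 CPM (0.31, interval 0.01 to 0.67). Fdft1, the squalene synthase that takes up the farnesyl diphosphate made by Fdps, was at 15.7 CPM in both libraries (interval of the log2 ratio -0.28 to 0.28). Sqle, squalene epoxidase, was at 32.3 and 28.9 CPM (-0.15, interval -0.36 to 0.04), and Cyp51, lanosterol demethylase, at 43.2 and 39.3 CPM (-0.13, interval -0.31 to 0.04). Msmo1, the sterol methyl oxidase, was at 44.2 and 37.9 CPM (-0.21, interval -0.39 to -0.05). Lss, the cyclase that makes lanosterol, was at 9.35 and 7.87 CPM, and Dhcr7, which closes one route to cholesterol, at 6.82 and 6.31 CPM. Sc5d, a sterol desaturase, was at 19.0 and 16.6 CPM. Tm7sf2, a sterol reductase, was at 4.71 and 5.996 CPM, and Hsd17b7, a sterol keto-reductase, at 14.5 and 15.7 CPM. The intervals of the last 5 all included 0. The 11 genes kept their signs with the same mix, from -0.48 (Dhcr7) to 0.44 (Nsdhl). After thinning Sqle passed the limit at -0.65.

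The 6 control and transport genes were all within 1.5-fold, with a median of -0.03. Srebf2, the SREBP gene most tied to sterol synthesis, had 986 and 786 UMIs, 69.3 CPM against 61.2 CPM (-0.18, interval -0.32 to -0.04). Srebf1, tied more to fatty acid synthesis, was at 21.7 and 22.3 CPM (0.03, interval -0.20 to 0.27), and at -0.23 with the same mix. Scap, the SREBP escort, was at 9.49 and 12.9 CPM (0.40, interval 0.10 to 0.78), but at -0.18 with every cell weighted equally and -0.55 after thinning. Insig1 was at 21.2 and 20.4 CPM (-0.05), but at -0.60 after thinning, past 1.5-fold, and Insig2 at 13.6 CPM in both libraries. Stard4, a cytosolic sterol carrier, was at 34.03 and 30.45 CPM (-0.16, interval -0.36 to 0.03). The other 5 genes had same-mix ratios from -0.38 (Stard4) to 0.16 (Scap).

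In fatty acid synthesis and desaturation, Fads2 and Scd1 were at least 1.5-fold lower, Scd2 came close, and the other 4 genes were within 1.5-fold; the median was -0.34. Acly, which supplies cytosolic acetyl-CoA from citrate, had 1045 and 1130 UMIs, 73.5 CPM against 88.0 CPM (0.26, interval 0.14 to 0.38). Acaca, acetyl-CoA carboxylase, was at 16.1 and 12.5 CPM (-0.34, interval -0.66 to -0.06), and Fasn, fatty acid synthase, at 32.6 and 33.5 CPM (0.04, interval -0.16 to 0.23). Fads2, the delta-6 desaturase of polyunsaturated fatty acids (chr19:10062765-10101746), had 304 and 104 UMIs. Its level was 21.4 CPM (interval 19.0 to 23.9) in the DMSO library and 8.10 CPM (6.62 to 9.81) in the selinexor library, the lowest ratio of the 34 at -1.30 (interval -1.74 to -1.07). With the same mix it was -1.01. Its neighbour Fads1, the delta-5 desaturase on the same chromosome, was at 16.2 and 16.5 CPM (0.02, interval -0.25 to 0.30). Acly, Acaca, Fasn and Fads1 had same-mix ratios from -0.34 (Acaca) to 0.24 (Fads1).

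Scd1 and Scd2 both encode stearoyl-CoA desaturases, which make monounsaturated fatty acids. Scd2 had 3360 and 2044 UMIs, 236.2 CPM against 159.2 CPM (-0.57, interval -0.65 to -0.49), and passed 1.5-fold with the same mix (-0.67) and with cells weighted equally (-0.97). Scd1 had 112 and 62 UMIs, 7.88 CPM against 4.83 CPM (-0.61, interval -1.18 to -0.25). With the same mix it was at -1.04, and with cycling cells left out at -0.15. In the selinexor library 40.3% of its UMIs came from 10 cells, so its ratio rests on few cells.

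The 3 LXR and efflux genes lay above 0, and 2 of them passed 1.5-fold. Abcg1, a transporter that passes cholesterol to lipoprotein particles (chr17:31057675-31117988), had 1480 and 2642 UMIs. Its level was 104.1 CPM (interval 98.8 to 109.5) in the DMSO library and 205.7 CPM (198.0 to 213.7) in the selinexor library, a log2 ratio of 0.98 (interval 0.89 to 1.08). With the same mix of clusters it was 0.58, just under the limit. Nr1h3, the gene of LXR alpha, had 29 and 60 UMIs, 2.04 CPM against 4.67 CPM (0.90, interval 0.53 to 1.89), and was at 0.39 with every cell weighted equally. Abca1, which loads cholesterol onto apolipoproteins, had 276 and 309 UMIs, 19.4 CPM against 24.1 CPM (0.30, interval 0.07 to 0.55), with -0.18 for the same mix and 0.67, past 1.5-fold, after thinning. Of the selinexor UMIs, 66.3% for Abca1, 51.0% for Abcg1 and 55.0% for Nr1h3 came from the monocyte-like cluster, which the same mix leaves out. With the same mix Nr1h3 was at 0.75, from fewer than 50 UMIs.

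**Figure D2:**
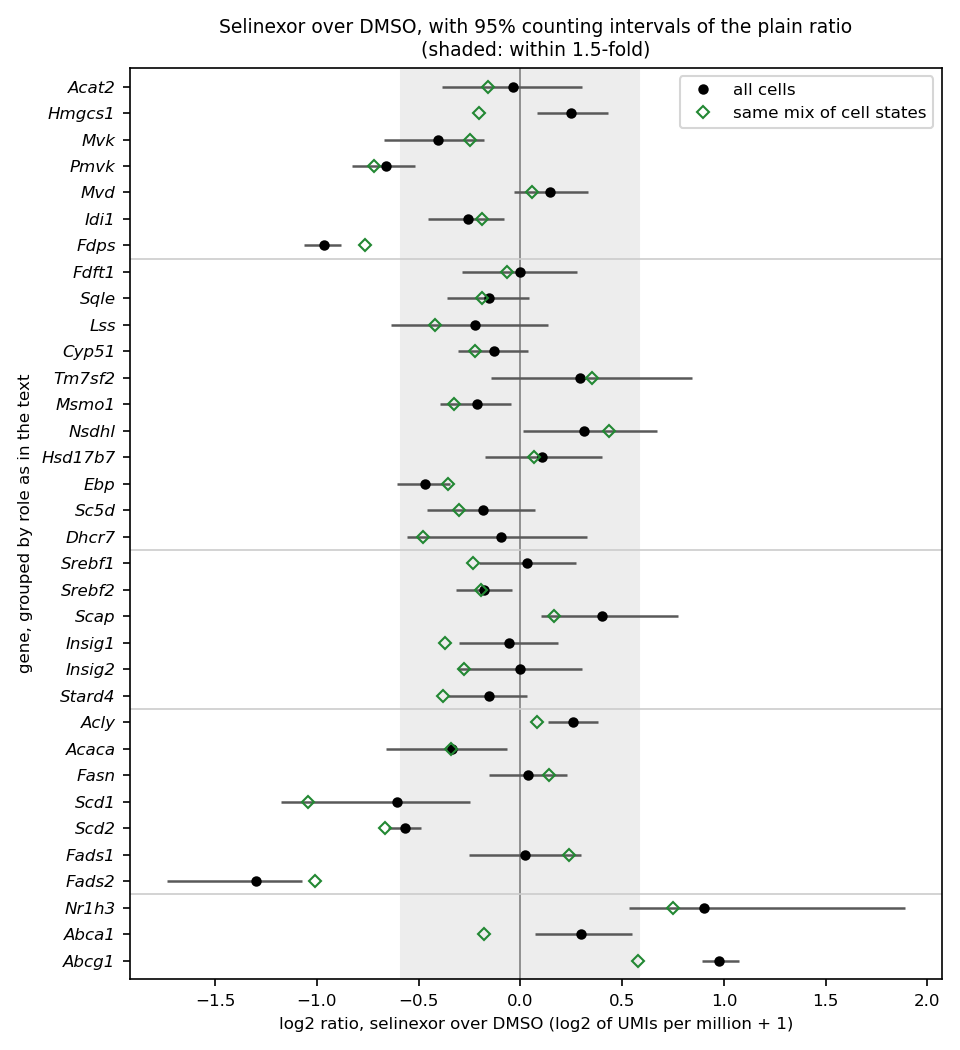
Log2 ratio of selinexor over DMSO (horizontal axis) for each of the 34 genes (vertical axis, grouped by role). Filled circles are all cells with 95% counting intervals of the plain ratio, open diamonds are the same mix of clusters, and the shaded band is within 1.5-fold. Fdps, Pmvk, Fads2 and Scd1 lie left of the band, and Abcg1 moves from 0.98 to 0.58 with the same mix.

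Comparing like cells, 5 clusters held at least 50 cells of each library. In each of them, a gene was measured from 20 UMIs upward, both libraries together, a low limit at which counting error alone can carry a gene past 1.5-fold. A gene also reaches it more easily through the library where it is higher, so counts and medians over measured genes are descriptions. The sterol and fatty acid genes lay mostly below 0 in the cycling intermediate neutrophil-like cluster (152 DMSO and 135 selinexor cells), whose leading genes include Camp, Fcnb and Ngp. There 30 of the 34 were measured, 27 lay below 0, and the median was -0.51 against -0.03 for all 7627 genes measured. In that cluster 12 of the 30 were at least 1.5-fold lower, where 8.67% of all genes were, and 1, Abcg1, was higher, where 8.76% were. All 7 mevalonate genes and all 10 measured genes from squalene to cholesterol lay below 0. The counting interval lay wholly below 0 for 3 of the 7 and for 0 of the 10. Of the 8 genes with at least 100 UMIs there, 3 were at least 1.5-fold lower, Fdps, Pmvk and Scd2, where 4.44% of all genes at that floor were, and 1, Abcg1, was higher, where 3.78% were. With coarser clustering (Leiden resolution 0.5) the matching cluster had 10 of 31 genes lower (8.79% of all genes). The other intermediate neutrophil-like cluster had 10 of 23 (10.2%), so the larger share moved to it. With clustering centred per library the larger share did not move, at 11 of 22 (12.3%) against 10 of 23 (11.8%). The centred match of the cycling intermediate cluster shared only 162 of its 287 cells.

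The values in that cluster were as follows. Fdps had 892 and 448 UMIs, 544.6 CPM against 292.0 CPM (-0.90, interval -1.07 to -0.73). Pmvk had 93 and 29 UMIs, 56.8 CPM against 18.9 CPM (-1.54, interval -2.24 to -0.97). Idi1 had 61 and 36 UMIs (-0.64, interval -1.30 to -0.05). These 3 mevalonate genes had intervals below 0, and Hmgcs1, with 51 and 30 UMIs, had one that reached 0.01.

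Among the fatty acid genes of the same cluster, Scd2 had 297 and 89 UMIs, 181.3 CPM against 58.0 CPM (-1.63, interval -2.0 to -1.30). Fads2 had 33 and 9 UMIs (-1.62, interval -3.03 to -0.69) and Acaca 26 and 9 UMIs (-1.30, interval -2.71 to -0.30). Acly, with 76 and 86 UMIs, lay at 0.27, an exception among them. Srebf1 had 35 and 17 UMIs (-0.89, interval -1.88 to -0.07) and Srebf2 96 and 65 UMIs (-0.46). The markers of neutrophil stages also differed within this cluster. Of 5 early neutrophil markers 4 were at least 1.5-fold lower with selinexor (summed level 1923 and 1007 CPM), and of 7 measured monocyte markers 5 were higher (1414 and 2507 CPM over the 8 listed). Of the 6 intermediate neutrophil markers 1 was higher and 3 were lower, with summed levels of 30943 and 30889 CPM. The part of these marker differences in the lipid gene values was not tested.

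The intermediate neutrophil-like cluster with fewer cycling cells (194 and 206 cells) showed lower values for part of the same genes. Of 22 measured, 18 lay below 0, with a median of -0.39 against 0.06 for all genes. At least 1.5-fold lower were 6 of 22, Mvk, Pmvk, Mvd, Cyp51, Srebf1 and Scd2, where 11.6% of all genes were, and higher were 2, Abcg1 and Nsdhl, where 15.6% were. Scd2 had 147 and 38 UMIs, 135.0 CPM against 36.5 CPM (-1.86, interval -2.44 to -1.36). Pmvk had 40 and 15 UMIs (-1.29, interval -2.31 to -0.46), and Fdps 333 and 238 UMIs, 305.9 CPM against 228.6 CPM (-0.42, interval -0.67 to -0.18). Abcg1 had 54 and 112 UMIs, 49.6 CPM against 107.6 CPM (1.10, interval 0.64 to 1.61). In this cluster 0 of 5 early neutrophil markers passed 1.5-fold in either direction, of which 2 were measured (summed level 131.4 and 112.4 CPM). Of its 6 cycling markers 3 were higher (261.8 and 433.1 CPM). Of 8 late neutrophil markers 3 were higher and 2 lower (3121 and 5170 CPM), and of 6 intermediate ones 1 was higher (37660 and 49622 CPM). The part of these marker differences in the lipid gene values was not tested.

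In the cycling cluster with no type named (166 and 108 cells), the genes lay on both sides of 0. Of 33 measured, 6 were at least 1.5-fold lower, where 6.35% of all genes were, and 4 were higher, where 18.3% were. The median of the 33 was -0.06 against 0.17 for all genes. Lower were Pmvk with 199 and 90 UMIs (-0.72, interval -1.11 to -0.37), Fdps with 344 and 153 UMIs (-0.75, interval -1.05 to -0.48), Fads2 with 102 and 25 UMIs (-1.55, interval -2.31 to -0.98), and Scd1, Insig2 and Acat2. Higher were Abcg1 with 247 and 350 UMIs, 97.3 CPM against 182.8 CPM (0.90, interval 0.67 to 1.15), Hmgcs1 with 89 and 102 UMIs (0.59, interval 0.18 to 1.03), Hsd17b7 and Nr1h3. Scd2, far lower in both neutrophil-like clusters, had 664 and 445 UMIs here, 261.5 CPM against 232.5 CPM (-0.17, interval -0.35 to 0.01). The cluster's cells differed in markers too: of 8 monocyte markers 5 were higher with selinexor and 1 was lower (1309 and 3029 CPM). Of 7 measured late neutrophil markers 5 were lower (2132 and 1126 CPM over the 8 listed). All 4 measured early neutrophil markers were lower (274.5 and 99.26 CPM over the 5 listed), and of 6 intermediate ones 3 were higher and 1 lower (1150 and 2453 CPM). The part of these differences was not tested.

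The cluster led by MHC class II and C1q genes held 205 DMSO cells and only 50 selinexor cells, and dendritic cell and macrophage markers both lead it. Of 33 genes measured, 5 were at least 1.5-fold lower, where 16.5% of all genes were, and 2 were higher, where 11.8% were, shares close to the background. Scd2 was the one lower gene with an interval below 0, at 1029 and 160 UMIs, 417.3 CPM against 260.5 CPM (-0.68, interval -0.93 to -0.44). Fads2 lay at 0.23 (58 and 17 UMIs) and Abcg1 at 0.16 (406 and 113 UMIs, interval -0.15 to 0.46). All 10 macrophage markers were at least 1.5-fold lower in this cluster (1586 and 516.2 CPM) and 5 of 7 measured dendritic cell markers were higher (10495 and 16052 CPM over the 10 listed), so its cells were not a like mix in the libraries.

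The low-UMI cluster (210 and 627 cells, median 1158 and 1022 UMIs) gave counts for 9 of the 34 genes, 4 higher, where 18.9% of all genes were, and 2 lower, where 13.2% were. Acly was higher with 11 and 58 UMIs (1.21, interval 0.28 to 2.31), and Pmvk lower with 13 and 11 UMIs, 43.4 CPM against 16.3 CPM (-1.36, interval -2.71 to -0.14). Mvd was higher, with 1 and 23 UMIs (plain ratio interval 0.73 to 8.72 on the log2 scale). Abcg1 had 63 and 95 UMIs there, 210.4 CPM against 141.0 CPM (-0.57, interval -1.05 to -0.09), the direction opposite to that in the intermediate neutrophil-like and cycling clusters.

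Across the 5 clusters, Pmvk lay below 0 in 5 and was at least 1.5-fold lower in 4. Scd2 also lay below 0 in 5 and was at least 1.5-fold lower in 4. The counting interval lay below 0 in 4 clusters for Pmvk and in 3 for Scd2. Ebp lay below 0 in 5, from -0.44 to -0.21, and passed 1.5-fold in none. Fdps lay below 0 in 4, and Abcg1 was at least 1.5-fold higher in 3. The clusters of 1 library share a culture, so these are not 5 independent comparisons.

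**Figure D3:**
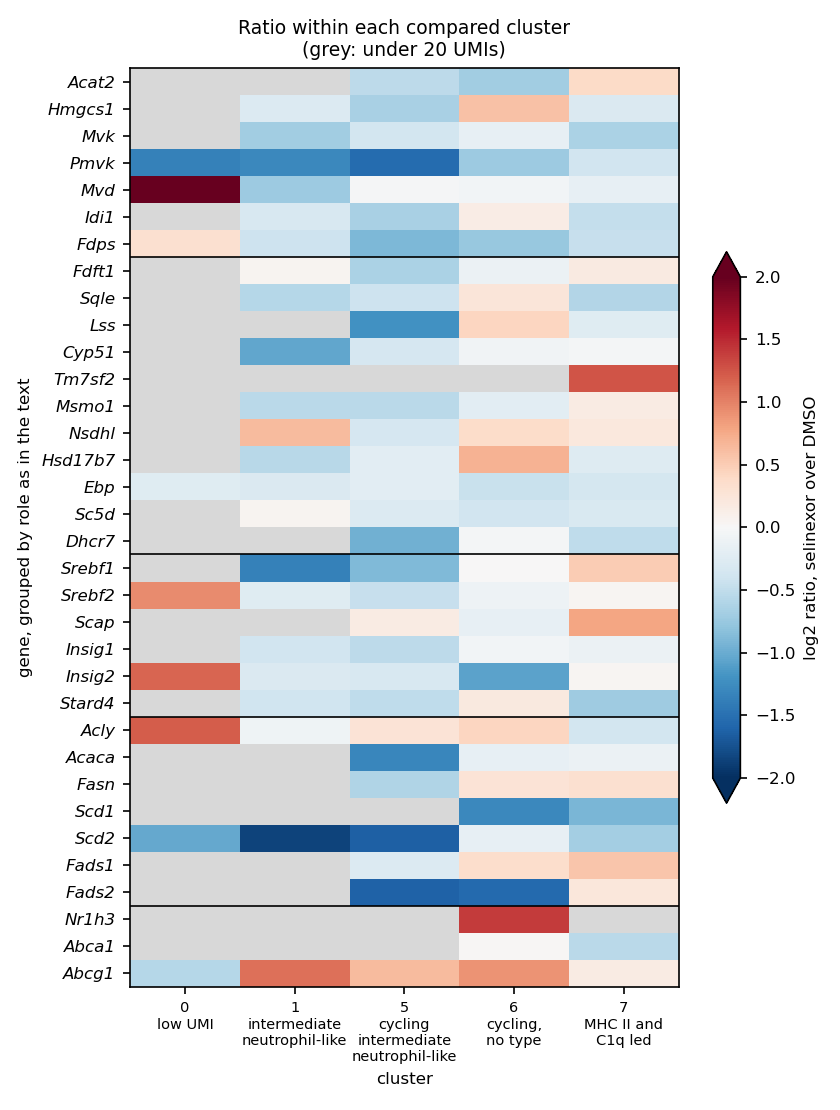
Log2 ratio of selinexor over DMSO (colour, from blue for lower to red for higher, ends at -2 and 2) for each gene (rows, grouped by role) in the 5 clusters with at least 50 cells in each library (columns). Grey cells had under 20 UMIs. The Pmvk row is blue in all 5 columns, and the column of the cycling intermediate neutrophil-like cluster is blue for 27 of its 30 measured genes.

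The 34 genes also differed in level between clusters of a library, and Fdps most plainly. In the DMSO library Fdps was at 796.9 CPM in the early neutrophil-like cluster (68 cells, led by Mpo, Elane and Prtn3), 544.6 CPM in the cycling and 305.9 CPM in the other intermediate neutrophil-like cluster, and 37.7 CPM (50 UMIs) in the late neutrophil-like cluster. The same order held in the selinexor library, with 456.0, 292.0 and 228.6 CPM, and with 9.84 CPM (4 UMIs) in the late neutrophil-like cluster that came mostly from that library. So Fdps fell along this order of clusters in both libraries, and was lower with selinexor in the early and in both intermediate clusters. The order is not one of stage alone, because the share of cycling cells also differed along it. In the DMSO library that share was 94.1%, 95.4%, 28.9% and 7.69%, from early to late. In the selinexor library it was 93.55%, 97.0%, 36.4% and, for the mostly selinexor late cluster, 6.74%. Whether Fdps followed stage or cycling was not tested. In the early neutrophil-like cluster, with 31 selinexor cells, Fdps had 816 and 214 UMIs (-0.80, interval -1.03 to -0.59).

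The neutrophil-like clusters differed in Abcg1 in the opposite order. In the DMSO library Abcg1 was at 10.7 CPM (11 UMIs) in the early neutrophil-like cluster, 25.6 CPM in the cycling intermediate, 49.6 CPM in the other intermediate and 93.4 CPM in the late neutrophil-like cluster. In the selinexor library the values were 8.52 CPM (4 UMIs), 40.4 CPM, 107.6 CPM and, in the mostly selinexor late cluster, 241.0 CPM. The level was highest in the monocyte-like cluster of the selinexor library, at 332.1 CPM (1346 UMIs).

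Scd2 was highest in the cluster led by MHC class II and C1q genes, 417.3 CPM in the DMSO library, followed there by the cycling cluster with no type (261.5 CPM) and the Csta3 and Dmkn cluster (238.6 CPM). In the selinexor library the monocyte-like cluster, at 252.4 CPM, held 50.1% of all Scd2 UMIs. Late neutrophil-like cells had 79.8 CPM in the DMSO library and 19.7 CPM (8 UMIs) in the mostly selinexor cluster. Abca1 was found mainly in 2 clusters. The one led by MHC class II and C1q genes held 65.6% of its DMSO UMIs (73.4 CPM), and the monocyte-like one was at 50.6 CPM in the selinexor library.

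**Figure D4:**
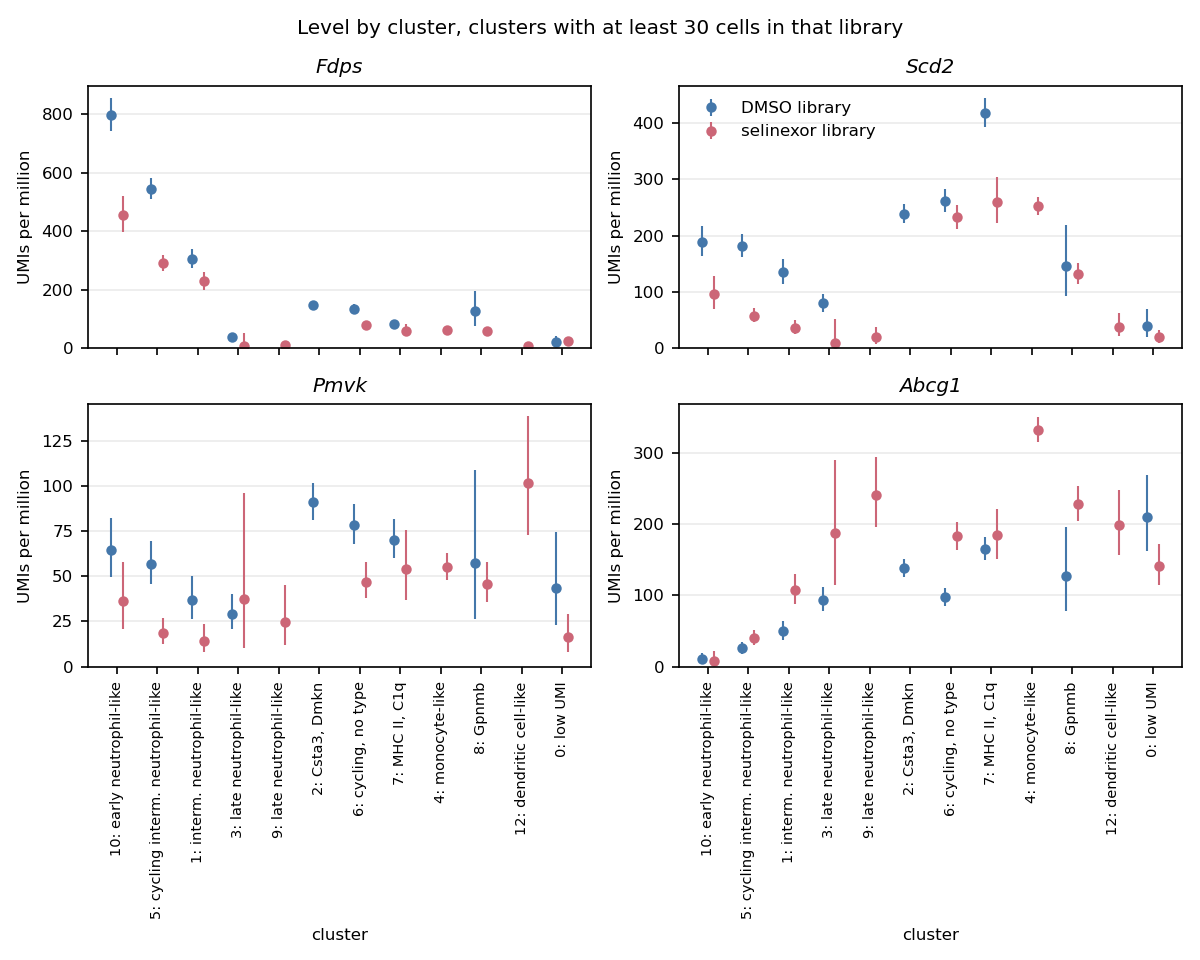
Level of Fdps, Scd2, Pmvk and Abcg1 in CPM (vertical axes) by cluster (horizontal axis) in the DMSO library (blue) and the selinexor library (red), for clusters with at least 30 cells of that library. Points are summed counts and bars 95% Poisson counting intervals. Fdps is highest in the early neutrophil-like cluster (796.9 and 456.0 CPM), and Abcg1 in the monocyte-like cluster (332.1 CPM).

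As summed levels, the mevalonate genes were at 990.2 CPM in the early neutrophil-like cluster of the DMSO library (interval 930.2 to 1053) and 611.5 CPM in the selinexor library (542.8 to 686.5), the highest of clusters with at least 30 cells. Most of this was Fdps. Without Fdps, the 17 other genes of sterol synthesis summed to 480.5 and 368.6 CPM there, and the highest sums were in the Csta3 and Dmkn cluster of the DMSO library (616.5 CPM) and in the monocyte-like cluster of the selinexor library (586.1 CPM). In the cycling intermediate neutrophil-like cluster the sum without Fdps was 401.8 CPM in the DMSO library (interval 371.7 to 433.7) and 275.1 CPM in the selinexor library (249.4 to 302.6), so the 2 intervals did not overlap. In the cycling cluster with no type it was 550.9 and 506.7 CPM, with overlapping intervals. The fatty acid genes summed to 662.3 CPM in the cluster led by MHC class II and C1q genes of the DMSO library and 508.0 CPM in the selinexor library. The LXR and efflux genes were lowest in the early neutrophil-like cluster (11.7 and 8.52 CPM).

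**Figure D5:**
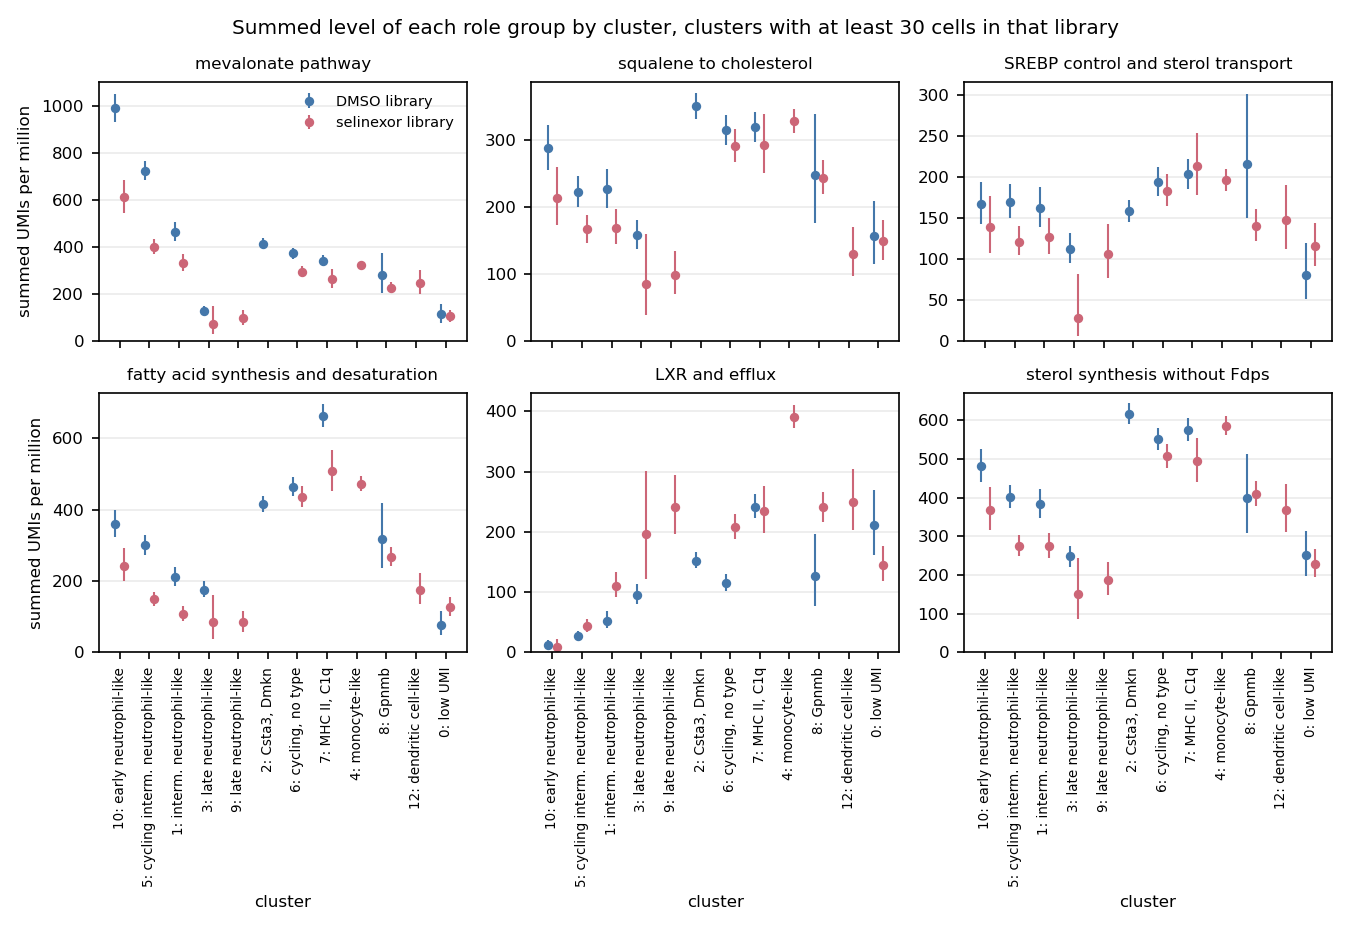
Summed level of each role group, and of sterol synthesis without Fdps, in CPM (vertical axes) by cluster (horizontal axis) in the DMSO library (blue) and the selinexor library (red), for clusters with at least 30 cells of that library. Bars are 95% Poisson counting intervals. The mevalonate sum is highest in the early neutrophil-like cluster (990.2 and 611.5 CPM) and the LXR and efflux sum is lowest there.

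For Fdps and Abcg1 the share of cells with a UMI differed in the direction of the level once depth was equal. At full depth 45.4% of DMSO cells and 29.0% of selinexor cells held a Fdps UMI. With each cell thinned to 2000 UMIs, which left out 314 DMSO and 783 selinexor cells, the shares were 26.0% (interval 23.7 to 28.3) and 18.2% (16.0 to 20.5). For Abcg1 the shares were 42.9% and 45.7% at full depth, and 17.1% (15.2 to 19.2) and 29.8% (27.2 to 32.5) after thinning. By cluster, the thinned Abcg1 share was 1.47% in the early neutrophil-like cells of the DMSO library (1 of 68 cells) and 42.0% in the monocyte-like cells of the selinexor library (140 of 333). Of the 34 genes, 28 had a thinned share that differed in the direction of the level over all cells, and 6 did not, Acat2, Hsd17b7, Insig2, Scap, Fads1 and Fasn. The thinned Fdps share was 69.1% in the early neutrophil-like DMSO cells (47 of 68) and 4.80% in the late neutrophil-like DMSO cells (11 of 229).

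Lipid genes outside the 34 were read from 7 further lists, over all cells, where 9.83% of all genes were at least 1.5-fold higher and 3.88% lower. Several called genes fell within 1.5-fold with the same mix of clusters, and their same-mix ratios follow the counts. Of 13 measured genes that process SREBP or degrade its partners, 1 was at least 1.5-fold higher, the SREBP protease Mbtps2 (103 and 158 UMIs, 0.69, interval 0.40 to 1.14, same mix 0.46), and 1 lower, the vesicle coat gene Sec24d (149 and 73 UMIs, -0.78, interval -1.31 to -0.47, same mix -0.98). The next in order were Rnf139 (0.40) and Rnf145 (-0.17), both ubiquitin ligases. Of the 13 genes of the non-sterol isoprenoid branch, which make or handle other isoprenoid products than sterols, 0 passed 1.5-fold. Ggps1, which lengthens the product of Fdps, was at 0.51 (174 and 230 UMIs, interval 0.26 to 0.84) and the prenyltransferase subunit Pggt1b at 0.39, while Coq2 of ubiquinone synthesis was at -0.13 (0.05 with the same mix) and Rabggta at -0.12. Of 16 measured genes of uptake and transfer, 1 was higher, the lysosomal membrane protein Scarb2 (655 and 971 UMIs, 0.70), which was at 0.38 with the same mix. In that list Osbpl8 was at 0.54 but -0.05 with the same mix, the scavenger receptor Msr1 at -0.24 but -0.73 with the same mix, and Lrpap1 at -0.24.

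For fatty acids, 0 of 16 measured genes of elongation, activation and supply were higher and 1 was lower, Acss2, which had under 100 UMIs. The acyl-CoA synthetase Acsl1 (0.48) and the elongase Elovl5 (0.37) lay highest, and Tecr (-0.38) and Elovl6 (-0.32) lowest. Of 10 measured storage genes, 2 were higher, the triglyceride lipase Pnpla2 (374 and 582 UMIs, 0.76, interval 0.60 to 0.98, same mix 0.77) and the cholesteryl ester hydrolase Nceh1 (556 and 786 UMIs, 0.63, same mix 0.11), while the acyltransferases Dgat2 (-0.33) and Dgat1 (-0.26) lay lowest. Of 9 other LXR targets and partners, 2 were higher, Smpdl3a (515 and 868 UMIs, 0.88, same mix 0.68) and the LXR partner Rxra (156 and 269 UMIs, 0.87), with a median of 0.34. Rxra was at 0.30 with the same mix of clusters, and in this list Mylip was at 0.05 (-0.29 with the same mix) and Lpcat3 at -0.17. Of 19 measured genes of fatty acid oxidation, 1 was higher, the carnitine palmitoyltransferase Cpt1a (487 and 705 UMIs, 0.67, same mix 0.43), and 2 were lower, the dehydrogenase Acadl (1654 and 935 UMIs, -0.67, same mix -0.60) and the isomerase Eci1 (392 and 222 UMIs, -0.64, same mix -0.74). Hadh was at 0.50 there, and at 0.60, past 1.5-fold, with the same mix.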

How the data were processed

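Droplet single-cell libraries of 2 cultures, 1 with DMSO and 1 with selinexor, were analysed from the deposited matrices. The deposited values are raw UMI counts, which the authors obtained with Cell Ranger 6.1.2 (named in the submitters' processing notes and, per the file headers, as the matrix writer). The notes name mm10 as the genome build. Which annotation was used is not given in the sources used here. Counts of 12 multiplexing tags were kept out of gene totals. No barcode occurred in both libraries (0 shared), and every cell's most abundant tag was 1 tag per library.

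Barcodes were kept from 200 genes upward and below 10% mitochondrial UMIs, 1743 of 1784 and 1967 of 1989 barcodes. Scrublet in scanpy 1.11.5 marked only 1 and 5 cells, 0.162% of 3710. The marked cells were kept, the calls were not checked, and doublets may remain. Library sums of UMIs were converted to CPM. Ratios were taken with a pseudocount of 1 CPM. Sums have exact Poisson intervals, ratios exact conditional binomial intervals and shares Clopper-Pearson intervals, all at 95%. PCR and sampling of cells add error that they do not cover. Clusters came from 2000 variable genes without the 34 genes and the other lipid lists, 30 principal components, 15 neighbours and Leiden resolution 1 (leidenalg 0.10.2). A type name required at least 3 markers of its set to be 2-fold higher than in the other cells. Not every cluster that met this was named. The low-UMI cluster had 4 of 8 late neutrophil markers, and a small cluster had 4 of 6 basophil or mast cell markers. The cluster led by MHC class II and C1q genes met it for macrophage and dendritic cell markers (7 and 6 of 10). The intermediate neutrophil-like cluster with fewer cycling cells had 6 of 6 intermediate and 5 of 8 late neutrophil markers.

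The genes and all lists were chosen with earlier results of these data known. All 34 genes are named, and of each other list the 2 genes at either end of the ratio order, counting those with 100 UMIs or more. Genes were located in a GENCODE annotation of GRCm38. Code for ratios, intervals, scaling and thinning was tested on simulated data. Alternatives covered scaling, cell weights, depth, cell mix, filters, doublets, cycling cells, pseudocount, count floors and clustering. With CPM the all-gene median was 0.13 on the log2 scale, and TMM and median-of-ratios factors moved every ratio by -0.13 and -0.15.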

Additional observations from a re-analysis of the deposited data

Results flagged for a closer look

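Abcg1 differed in direction between clusters. In the intermediate neutrophil-like cluster its log2 ratio of selinexor over DMSO was 1.10 (interval 0.64 to 1.61), and in the low-UMI cluster it was -0.57 (interval -1.05 to -0.09), so the counting intervals lay on opposite sides of 0. Each cluster holds 1 library per group, and the difference between them was not tested. The low-UMI cluster held 63 and 95 Abcg1 UMIs and a median of 1158 and 1022 UMIs per cell. In it, 4 of 8 late neutrophil markers were at least 2-fold higher than in the other cells.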

How the results depend on the processing

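Fdps and Fads2 stayed at least 1.5-fold lower under each of 10 alternatives that could move a ratio over all cells (UMI floors and doublet calls were left out). Pmvk did so under 8 of 10 and Scd1 under 6 of the 9 that measured it. Abcg1 stayed at least 1.5-fold higher under 9 of 10, the same mix of clusters being the exception at 0.58, and Nr1h3 under 6 of the 7 that measured it. The count of genes higher was 2 of 34, where 9.83% of all genes were. It was 1 of 34 with cells weighted equally (13.1% of all genes), 0 of 33 with the same mix (6.07%) and 1 of 30 with a floor of 200 UMIs (8.21%). The count lower was 4, but 7 with cells weighted equally, where 6.31% of all genes were. With TMM and with median-of-ratios scaling it was 6 (6.15% and 6.38% of all genes). It was 5 of 33 with the same mix (4.19%), 5 of 29 thinned (5.56%) and 5 of 31 without cycling cells (4.15%). With a stricter cell filter it was 3 of 34 (4.43%), and with a floor of 200 UMIs 3 of 30 (3.3%). The mevalonate median was -0.58 with cells weighted equally and -0.53 without Mki67 or Top2a cells, where the squalene to cholesterol median was -0.38. The LXR and efflux median was 0.39 with cells weighted equally and 0.20 with the same mix, over 2 genes. The cause of these shifts was not tested. Within clusters, counts are given higher and then lower, with the shares of all genes in the same order. The low-UMI cluster gave 2 and 4 of 15 at Leiden resolution 0.5 (21.8% and 11.6%), 2 and 1 of 12 with centring per library (24.0% and 12.1%), and 0 and 0 with a floor of 100 UMIs, which left 1 gene. Its thinned cells measured no gene of the 34. The intermediate neutrophil-like cluster gave 2 and 10 of 23 at resolution 0.5 (14.95% and 10.2%), 1 and 10 of 23 with centring (15.7% and 11.8%), 2 and 2 of 10 thinned (17.7% and 13.2%), and 1 and 1 of 6 with the floor of 100 (10.7% and 6.94%). The cycling intermediate one gave 1 and 10 of 31 at resolution 0.5 (7.65% and 8.79%), 0 and 3 of 6 thinned (10.5% and 14.9%), and 1 and 3 of 8 with that floor (3.78% and 4.44%). With centring it gave 1 and 11 of 22 (11% and 12.3%). The cycling cluster with no type gave 2 and 3 of 12 thinned (17.2% and 13.4%), and 2 and 3 of 19 with that floor (12.4% and 5.14%). The MHC class II and C1q cluster gave 1 and 8 of 31 with centring (10.1% and 14.3%), 1 and 8 of 15 thinned (16.1% and 22.7%), and 0 and 3 of 17 with that floor (6.75% and 12.2%). Its closest match at resolution 0.5 gave 2 and 3 of 34 (8.40% and 9.23%). That match held 155 DMSO and 373 selinexor cells and shared 170 of the 255 cells of the main cluster, so most of it was other cells. Thinning and the higher floor test fewer genes. Among the 5 compared clusters the mevalonate sum was highest in cluster 5, the cycling intermediate neutrophil-like one, but in cluster 7 (MHC class II and C1q) for DMSO and cluster 6 (cycling, no type) for selinexor without Fdps and Scd2. With cells weighted equally the highest squalene to cholesterol sum moved from cluster 7 to cluster 6 in both libraries, and that of SREBP control in the DMSO library from 7 to 6. Thinned shares of cells were 26.0% and 18.2% for Fdps and 17.1% and 29.8% for Abcg1. The floor of 100 UMIs, the sums without Fdps and Scd2, the thinned shares and a run without the low-UMI cluster were chosen after seeing the data. Depth limits genes such as Nr1h3 and Scd1, and with 1 library per group culture variation cannot be told apart from the drug. No paired analysis was possible because each group has 1 library.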

Other observations

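Ch25h, the cholesterol 25-hydroxylase that makes an oxysterol ligand of LXR and INSIG, was singled out after its values were seen, because it is among the leading genes of the monocyte-like cluster. It had 82 UMIs in the DMSO library and 266 in the selinexor library (log2 interval 1.48 to 2.22). With the same mix of clusters, which leaves out the monocyte-like cluster, its log2 ratio was -0.07. In the DMSO library 57.3% of its UMIs came from the cluster led by MHC class II and C1q genes (47 UMIs, against 1 in the selinexor library), and in the selinexor library 84.96% came from the monocyte-like cluster (226 UMIs). The selinexor UMIs left in the same mix came almost all from the cycling cluster with no type (33 UMIs).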
